A study of Mus musculus with 18 samples.

Results

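A set of 112 genes, of 24514 in the count table, stood low on the first day after the reprogramming factors were switched on in mouse embryonic fibroblasts and higher again on the third day. The cells were the iMGT-Myh6-eGFP-MEF line, which carries Mef2c, Gata4 and Tbx5 under doxycycline control and a green reporter driven by the heart muscle gene Myh6. All 6 groups carried these transgenes. Cells received a control siRNA (siControl) or an siRNA against Chst7 (siChst7), which encodes a sulfotransferase of chondroitin chains, and were harvested at day 0 without doxycycline or at day 1 or day 3 of 1 µg/mL doxycycline. Each group had 3 libraries, and 40 wells were pooled for each library. The members were selected on the 9 siControl libraries alone. Counts were scaled to the library total as CPM, and a gene entered when its day 0 and day 3 means were each at least 5 CPM and each at least 1.6 times the day 1 mean, and when its highest day 1 value lay below every day 0 and day 3 value. Symbols of predicted genes and clones were left out, which removed 2 genes. The siControl values below therefore describe the choice and carry no test, and differences between the siRNAs, which rest on those values, are given as descriptions without p-values. The 9 siChst7 libraries had no part in the choice, and their time course is tested. Of the 9546 genes that met the siControl minimum of 5 CPM at both ends, 1.17% were members.

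Fibroblasts secrete collagens and other matrix proteins and pull on them through adhesion receptors and the actin cytoskeleton. They also sense injury and infection, and respond with chemokines, complement proteins and transcription factors of the C/EBP and ATF families. In direct cardiac reprogramming Mef2c, Gata4 and Tbx5 are introduced into such cells to silence the fibroblast programme and open heart muscle genes.

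By roles assigned by hand once the members were known, 18 members encode receptors, adhesion and other surface proteins, 9 matrix proteins, 8 secreted ligands or their modulators, 4 proteases and peptidases and 2 complement proteases. Inside the cell, 9 encode transcription factors and cofactors, 9 signalling regulators, 7 cytoskeletal or junction proteins, 6 interferon-inducible or innate immune proteins, 4 stress response proteins, 4 enzymes and droplet proteins of lipid and xenobiotic metabolism and 3 glycan enzymes, and the remaining members are in no class described here. By RefSeq biotype 109 were protein coding, 2 were long non-coding RNAs (Dnm3os and Lockd) and 1 was a transcribed pseudogene (Hmga2-ps1). Dnm3os lies antisense within Dnm3 and Hmga2-ps1 resembles Hmga2, so that reads of these genes could be shared. The median length given with the counts was 3621.5 bases, against 2881.5 over all 13802 genes tested and 3117.0 over the genes that met the siControl minimum.

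Promoter sequence was taken from RefSeq (GRCm38.p6) and matched 74 of the 112 members. The 5 stretches below are shown because they belong to members described further on and carry, in capitals, letters that known factors bind on either strand: an interferon response element in Irgm1 and Lgals9, a T-box site in Bmp6, a MEF2 site in Thbs2 and an AP-1 site in Col6a1 and, further upstream than the interferon letters, in Irgm1. Matches to other motifs searched, such as a GC box in Irgm1 and in Bmp6, are left in lower case. Each is the 150 bases that end at the base before the gene's start, 5′ to 3′ on the gene's own strand.
Irgm1, chr11:48871421-48871570, minus strand: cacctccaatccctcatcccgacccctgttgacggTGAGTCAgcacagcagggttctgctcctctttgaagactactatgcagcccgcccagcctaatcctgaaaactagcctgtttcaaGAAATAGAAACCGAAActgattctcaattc
Lgals9, chr11:78984925-78985074, minus strand: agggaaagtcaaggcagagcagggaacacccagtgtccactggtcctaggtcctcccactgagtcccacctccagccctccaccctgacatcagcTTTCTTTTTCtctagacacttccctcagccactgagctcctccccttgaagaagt
Bmp6, chr13:38345566-38345715, plus strand: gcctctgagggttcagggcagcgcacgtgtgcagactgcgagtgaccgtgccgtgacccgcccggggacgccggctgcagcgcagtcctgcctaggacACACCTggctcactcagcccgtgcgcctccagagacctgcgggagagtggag
Thbs2, chr17:14694263-14694412, minus strand: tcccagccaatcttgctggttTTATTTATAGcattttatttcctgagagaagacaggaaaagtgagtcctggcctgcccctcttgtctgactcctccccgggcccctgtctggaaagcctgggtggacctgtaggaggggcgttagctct
Col6a1, chr10:76726045-76726194, minus strand: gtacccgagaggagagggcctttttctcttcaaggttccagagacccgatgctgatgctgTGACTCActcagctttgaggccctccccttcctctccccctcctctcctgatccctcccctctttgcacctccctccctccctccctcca

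On both strands of the 250 bases before the start, the interferon response element lay in 3 of 74 member promoters (4.05%), against 2.64% of 10511 promoters of tested genes, and in Irgm1 a pair of matches overlapped. The T-box site AGGTGT lay in 10.8% against 9.72%, the GATA site AGATAA in 1.35% against 5.57%, and the MEF2 site in 1.35% against 1.53%. The match to the MEF2 site in Thbs2 overlaps one to the TATA box TATAAA, which lay in 10.8% of member promoters against 6.59%. The AP-1 site TGANTCA lay in 5.41% against 4.69% and the TEAD site GGAATG in 14.9% against 10.7%. The GC box GGGCGG lay in 67.6% of member promoters (95% Wilson interval 56.3 to 77.1%) against 58.6%. A match is a description of letters and not of binding.

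The libraries held between 30590742 and 50021142 counted reads. Chst7 stood at 18.0 to 39.0 CPM in the siControl libraries and at 0.24 to 3.0 CPM in the siChst7 libraries, with no overlap. The day 3 siChst7 libraries differed more from one another than those of any other group, and the share of counts on the ribosomal RNA gene Rn45s was 0.605 to 1.96% there, against 0.131 to 0.542% in siControl. The summed level of 12 fibroblast markers in siControl was 9978.0 to 10332.7 CPM at day 0, 14178.2 to 14544.6 at day 1 and 14787.9 to 15486.9 at day 3. In siChst7 it was 9797.4 to 10652.5, 12438.2 to 12742.8 and 12240.7 to 12932.8 CPM. Single markers differed from the sum: of 10 tested, 8 were called lower from day 0 to day 1 in siChst7 and 2 higher (edgeR adjusted p below 0.05). Among genes that met the siControl minimum, 33.7% were called lower and 33.3% higher. Thy1 on that list was near 0, with group means of at most 0.222 CPM. No cells without doxycycline were followed to day 1 or day 3, so that the factors, the drug and the time since plating and transfection cannot be told apart in a change over days. In bulk RNA, fewer cells of a type and less RNA per cell cannot be told apart either. The p-values rest on 1 spread per gene, shared over the libraries of all 6 groups, and not on the spread of the groups compared alone. The siControl libraries that chose the members thus enter the spread behind the siChst7 p-values. In fits of only the groups compared, which hold no siControl library for the siChst7 time course, the p-values were weaker at day 3. For the rise of Adamts7 in siChst7 from day 1 to day 3, the edgeR adjusted p went from 5.04e-10 to 2.25e-05. The number of members called for that rise went from 101 to 100.

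In siControl the median member at day 1 stood at 46.7% of its day 0 mean and 49.5% of its day 3 mean. The dip was at least 2-fold on both sides in 35 members and at least 3-fold on both sides in 7. The median day 3 mean was 92.4% of the day 0 mean, with 69 members lower at day 3 than at day 0, 43 higher, and 43 within 1.2-fold of it. These values rest on library totals. The TMM scaling factors used in the tests were 0.9613 to 0.971 in siControl at day 0 and 1.066 to 1.075 at day 3. On TMM-scaled totals every day 3 level would be lower relative to day 0. The members just inside the threshold were Cyp1b1, whose weaker side was 1.6 times the day 1 mean, Plin2 (1.601), Bicc1 (1.604) and Smim3 (1.606), and just outside it lay Kcnh2, Pcdhgc5 and P2rx4 (each 1.589) and Cd68 (1.587). Day 1 means ran from 1.77 to 201.3 CPM with a median of 9.1.

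**Figure D1:**
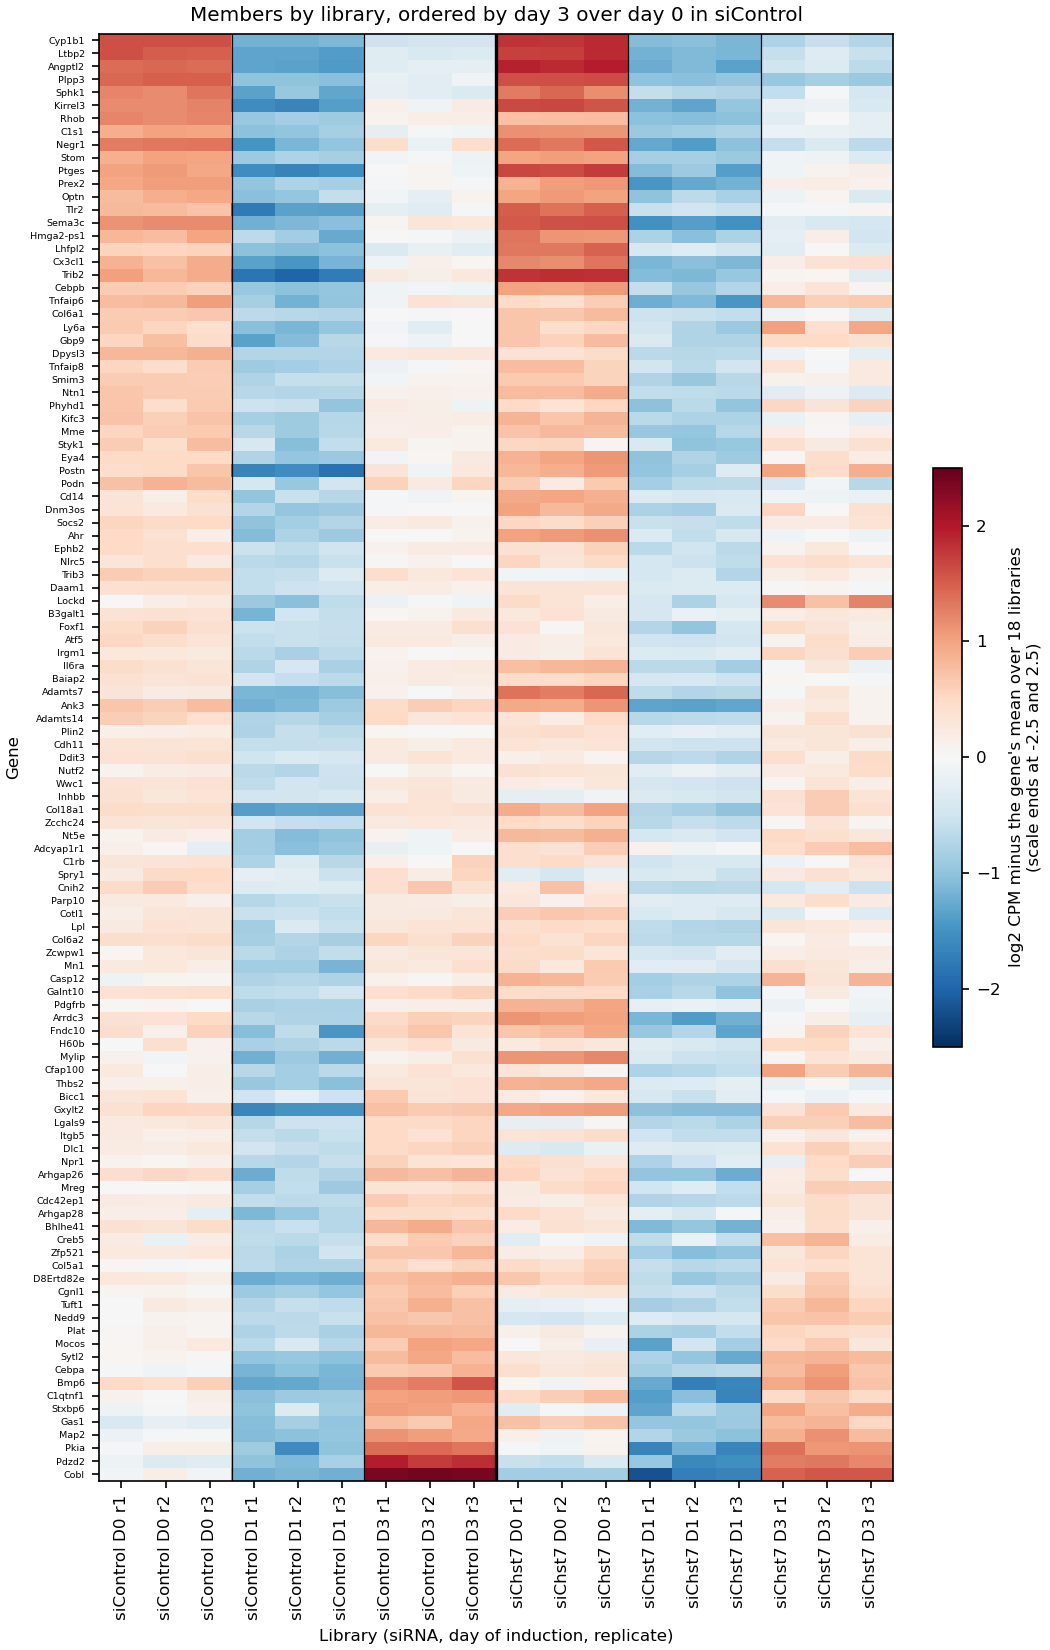
Level of 111 of the 112 members (rows) in each of the 18 libraries (columns), as log2 CPM minus the gene's mean over the libraries, with rows ordered by the ratio of day 3 to day 0 in siControl. The low day 1 columns in the left block follow from the choice of members, while the right block shows the same genes in the siChst7 libraries, where 102 of these had all 3 day 1 values below all day 0 and day 3 values.

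Most members took the same course in the siChst7 libraries. All 3 day 1 values lay below all day 0 and day 3 values in 102 of the 112, against 13.2% of the 9617 genes with at least 5 CPM at both ends in siChst7. In the edgeR quasi-likelihood fit (Benjamini-Hochberg adjusted p below 0.05 over 13802 genes), 108 members fell from day 0 to day 1, against 30.5% of all genes tested, with a median log2 fold change of -1.17. From day 1 to day 3, 101 members rose, against 31.7% of all genes, with a median of 0.76. Both steps were called for 97 members (86.6%), against 7.79% of all genes tested and 8.07% of those that met the siControl minimum.

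Held to the full rule of fold and non-overlap, 67 of the 112 members passed in siChst7. They made up 59.8% of the members and 48.2% of the 139 genes that passed there, which are 1.45% of the genes that could. Of the 45 that did not pass, 34 missed the 1.6-fold margin at day 3 and 16 missed it at day 0, with 8 among them missing both, and 6 were under 5 CPM at an end. The median siChst7 member stood at day 1 at 42.5% of its day 0 mean and at 55.1% of its day 3 mean, and at day 3 at 85.6% of day 0. Between day 3 and day 0 in siChst7, 64 members (57.1%) were called lower and 23 (20.5%) higher. The shares were 37.8% and 37.9% over all genes tested, and 45.5% and 36.5% over those that met the siControl minimum.

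Dip depth is given below as 1 number, the log2 level at day 1 minus the mean log2 level of days 0 and 3 in the edgeR fit, and ± after a log2 value is its standard error. In siChst7 it was called below 0 for all 112 members and above 0 for none, against 26.4% of all genes below and 27.9% above, with a median of -1.00 and a range of -2.08 to -0.33. This number is also negative for a gene that fell and did not come back, or rose only after day 1. Of the 15 members without both calls, 11 fell without a called rise, among them Plpp3, Pdgfrb, Thbs2, Lhfpl2, Cd14, Cotl1, Podn, Cnih2, Sphk1 and Bicc1. The other 4, Dlc1, Nedd9, Spry1 and Creb5, rose to day 3 without a called fall.

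Trib2, a pseudokinase that directs other proteins to degradation, had the deepest dip by the rule. Its siControl values were 19.0, 16.5 and 17.6 CPM at day 0, 2.61, 2.32 and 2.77 at day 1, and 10.9, 10.3 and 11.2 at day 3. In siChst7 they were 32.5, 33.3 and 33.0, then 4.38, 4.28 and 4.83, then 9.78, 9.58 and 7.75 CPM. The 3 days did not overlap with either siRNA, and the siChst7 day 0 values lay above all siControl values. The dip in siChst7 was -1.86 ± 0.08, edgeR adjusted p = 1.82e-14. Its relative Trib3, which is induced by stress, dipped by -0.45 ± 0.07, edgeR adjusted p = 1.53e-05, with siChst7 values of 25.8, 25.8 and 24.5, then 19.8, 21.3 and 16.2, then 29.8, 32.0 and 28.5 CPM, without overlap between days.

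All 8 secreted ligands and modulators fell from day 0 to day 1 and rose to day 3 in siChst7, with a median dip of -1.82 against -1.00 over all members. Of all 112 members 108 fell and 101 rose, against 30.5% and 31.7% of all genes tested. The counts by role below stand beside these. Sema3c, a guidance cue that also patterns the cardiac outflow tract, stood in siControl at 118.2, 122.3 and 122.6 CPM at day 0, 23.5, 24.7 and 26.2 at day 1 and 56.5, 66.1 and 64.7 at day 3. In siChst7 it went from 156.7, 162.0 and 165.7 to 19.0, 20.7 and 18.8 and then to 44.9, 41.2 and 39.7 CPM. That was a fall of 8.29-fold with a recovery to 2.15 times the day 1 mean (dip -1.99 ± 0.06, edgeR adjusted p = 1.71e-17). Bmp6, a bone morphogenetic protein, ended above its start: siControl values were 14.1, 13.4 and 15.1 CPM, then 4.06, 4.12 and 4.47, then 22.8, 24.3 and 29.8. In siChst7 they were 10.4, 9.25 and 10.8, then 4.2, 3.08 and 3.22, then 19.2, 21.7 and 16.4 CPM (dip -1.91 ± 0.11, edgeR adjusted p = 3.28e-12). Every day 3 value of Bmp6 lay above every day 0 value of the same siRNA.

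Other ligands differed in how far they came back. Angptl2, a secreted angiopoietin-like protein, went in siChst7 from 362.0 ± 12.5 to 41.0 ± 3.31 CPM (SD, n = 3) and reached 68.2 ± 7.44 CPM at day 3. Cx3cl1, the membrane-anchored chemokine fractalkine, went from 20.3 ± 1.23 to 4.02 ± 0.137 CPM and stood at 10.8 ± 0.951 at day 3. For both, day 3 stayed below day 0 without overlap. C1qtnf1, a secreted C1q and TNF related protein, returned toward its start, from 12.9, 14.1 and 15.8 CPM through 3.54, 4.49 and 2.94 to 12.8, 14.7 and 12.9. Ntn1, the axon guidance cue netrin, went from 292.1, 289.5 and 321.3 through 110.5, 107.9 and 105.6 to 137.7, 154.1 and 132.7 CPM. Inhbb, the beta-B chain of inhibins and activins, had the smallest dip of the 8 (-0.45 ± 0.05, edgeR adjusted p = 9.81e-08), with 65.6, 66.6 and 72.4 CPM at day 0 and 60.5, 58.9 and 56.2 at day 1. That fall (-0.16 ± 0.06, edgeR adjusted p = 0.0227) was not called in 2 of the fits that left out 1 library, with an adjusted p of 0.124 without siChst7 day 0 replicate 3.

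**Figure D2:**
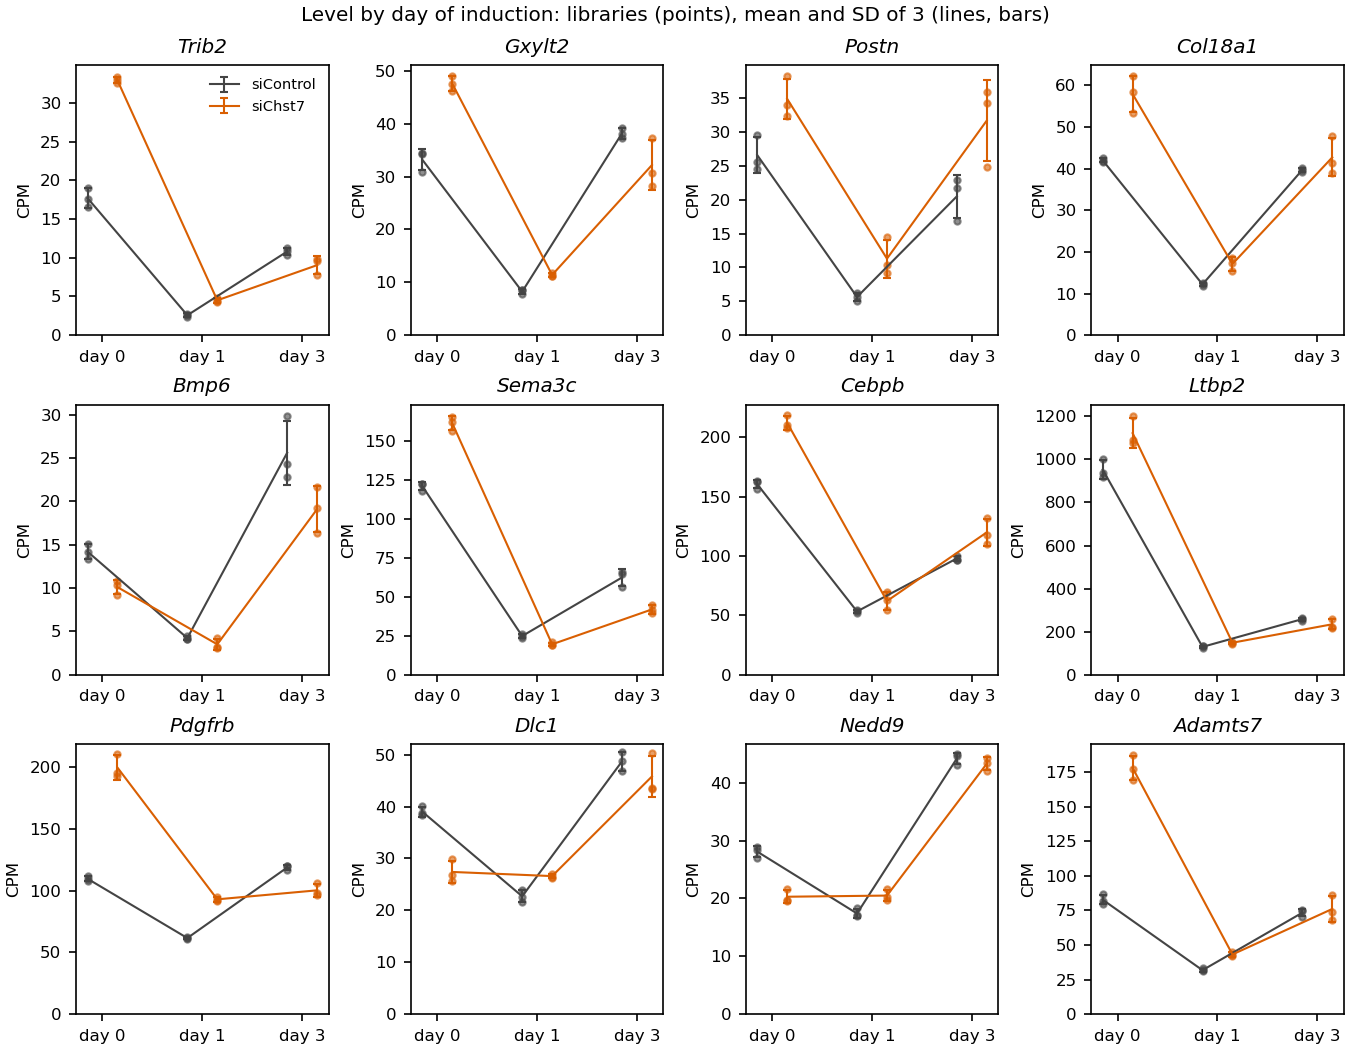
CPM by day of induction for 12 members, with points for libraries, lines for group means and bars for the SD of 3 libraries, siControl in grey and siChst7 in orange. Trib2, Gxylt2, Col18a1 and Sema3c are low at day 1 with both siRNAs, while Dlc1 and Nedd9 in siChst7 are level from day 0 to day 1 and Pdgfrb in siChst7 is near its day 1 level at day 3.

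All 9 matrix members fell from day 0 to day 1 in siChst7 and 7 rose to day 3. Ltbp2, a latent TGF-beta binding protein of elastic fibres, went in siControl from 1003.2, 936.4 and 919.4 CPM to 131.5, 131.1 and 124.7 and then to 264.5, 251.4 and 258.6. With siChst7 the values went from 1076.3, 1089.6 and 1200.4 to 144.5, 151.7 and 149.0 and then to 218.6, 260.9 and 223.2 CPM (dip -1.70 ± 0.05, edgeR adjusted p = 6.07e-18). The recovery was partial, to 1.58 times the day 1 mean after a 7.56-fold fall. Col18a1, the collagen from which endostatin is cut, went in siControl from 42.5, 41.7 and 41.9 CPM to 11.8, 12.5 and 12.3 and back to 39.6, 39.2 and 40.1. In siChst7 it went from 58.3, 53.4 and 62.2 to 18.5, 17.4 and 15.4 and then to 39.0, 47.8 and 41.4 CPM (dip -1.46 ± 0.06, edgeR adjusted p = 8.38e-15).

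Postn encodes periostin, a matricellular protein of activated fibroblasts. With siControl it stood at 24.6, 25.6 and 29.6 CPM at day 0, 5.69, 6.25 and 4.98 at day 1 and 22.9, 16.9 and 21.8 at day 3. With siChst7 it stood at 32.4, 34.0 and 38.2, then 9.15, 10.3 and 14.5, then 35.9, 24.9 and 34.3 CPM, and the dip was -1.47 ± 0.14, edgeR adjusted p = 1.19e-08. Day 1 lay apart from both other days with either siRNA. Col5a1, which regulates the assembly of collagen fibrils, stood in siChst7 at 457.7, 433.3 and 491.6 CPM, then 221.3, 203.2 and 209.2, then 416.8, 443.6 and 419.9 (dip -0.99 ± 0.04, edgeR adjusted p = 2.45e-14). Thbs2, a matricellular thrombospondin whose promoter is shown above, came back in siControl (69.4 ± 1.35, 32.7 ± 2.17 and 78.9 ± 1.79 CPM, SD, n = 3). In siChst7 it stood at 118.3 ± 4.48, 51.4 ± 2.33 and 58.3 ± 6.48 CPM, and the step from day 1 to day 3 was not called (0.08 ± 0.06, edgeR adjusted p = 0.256).

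Col6a1 and Col6a2 encode chains of the beaded collagen VI and are neighbours, and with Col18a1 they span 571 kb of chromosome 10 (76595756 to 77166530, GRCm38.p6). Col6a1 stood in siChst7 at 236.3, 233.3 and 251.5 CPM, then 101.3, 99.8 and 95.2, then 136.3, 146.7 and 121.7 (dip -0.78 ± 0.04, edgeR adjusted p = 5.09e-13). Col6a2 stood at 103.5, 94.8 and 107.2, then 46.4, 45.1 and 44.9, then 75.6, 85.2 and 73.0 CPM (dip -0.89 ± 0.05, edgeR adjusted p = 9.57e-13). For both genes the 3 days did not overlap. The other tested genes in that stretch, Pcbp3 and Slc19a1, were called lower at day 1 as well, by -0.35 ± 0.07 and -0.18 ± 0.05 in the same edgeR contrast. Col6a3, a further chain of collagen VI, is no member: its siControl means were 41.1, 12.9 and 11.5 CPM over the 3 days, with no recovery. Among 18 tested genes of collagen VI and other non-fibrillar collagens, 3 of them members, 9 were called lower at the dip and 3 higher in siChst7, with a median of -0.72. Among 10 fibrillar collagen genes 6 were called lower and 2 higher. Over all genes tested, 26.4% were called lower and 27.9% higher.

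Members lay on 20 chromosomes, and 11 neighbouring pairs lay within 1 Mb of each other. That number was not compared with other sets of genes, and clustering was not tested. Nlrc5, an activator of MHC class I genes, Cx3cl1 and Kifc3, a kinesin, lie within 768 kb of chromosome 8 (94434335 to 95202826). Of 17 tested genes in that stretch 7 were called lower at the siChst7 dip, against 26.4% of all genes tested. Adgrg1 there was higher (1.45 ± 0.08). The complement genes C1s1 and C1rb lie 28 kb apart on chromosome 6 (124530344 to 124581044). C1s1, which encodes a C1s protease of the classical pathway, went in siChst7 from 66.6, 65.5 and 64.7 CPM to 15.8, 16.6 and 17.6 and then to 27.1, 26.7 and 25.4 (dip -1.24 ± 0.06, edgeR adjusted p = 2.49e-14). C1rb went from 6.96, 7.25 and 6.51 to 3.67, 4.02 and 3.98 and then to 4.68, 5.14 and 6.51 CPM, and its rise (0.37 ± 0.15, edgeR adjusted p = 0.0359) was not called in 4 of the fits that left out 1 library, with an adjusted p of up to 0.19. Both genes have a close copy, C1s2 and C1ra, and how reads shared by copies were counted is not given in the sources used here. Mean siControl CPM over the days was 6.06, 2.07 and 3.45 for C1s2 and 52.8, 31.0 and 41.3 for C1ra. Of 22 tested complement and acute phase genes 14 were called lower at the dip and 3 higher, with a median of -0.47. The shares over all genes tested were 26.4% and 27.9%. From day 1 to day 3 in siChst7, 10 of the 22 were called higher and 8 lower, so that a call at the dip does not mean recovery. At that step 29.6% of genes that met the siControl minimum rose and 43.8% fell.

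All 18 surface and adhesion members fell from day 0 to day 1 in siChst7, and 14 rose to day 3. Kirrel3, an adhesion molecule of the immunoglobulin superfamily, went in siChst7 from 15.9, 16.2 and 15.1 CPM to 2.24, 2.03 and 2.62 and then to 4.48, 4.61 and 3.92. Negr1, of the same superfamily, went from 11.6, 11.1 and 12.9 to 1.83, 1.67 and 2.16 and then to 2.92, 3.45 and 2.81 CPM. In both, day 3 stayed well under day 0. Itgb5, the integrin beta-5 chain, went from 171.3, 174.4 and 186.0 through 95.4, 88.5 and 88.8 to 146.8, 163.9 and 146.1 CPM. Cdh11, a mesenchymal cadherin, went from 136.2, 129.9 and 134.7 through 76.7, 74.5 and 74.1 to 126.7, 130.8 and 118.2 CPM. Tlr2, a receptor for bacterial lipoproteins, went from 47.6, 43.1 and 47.1 through 11.4, 12.0 and 11.4 to 16.3, 16.1 and 17.5 CPM. Plpp3, a phosphatase of lipid mediators, went in siControl from 53.9, 55.9 and 56.2 through 9.89, 9.87 and 9.68 to 17.5, 16.6 and 18.6 CPM but in siChst7 from 60.6, 61.0 and 61.8 through 9.86, 9.6 and 10.2 to 10.3, 11.2 and 10.4.

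Cd14, a co-receptor for lipopolysaccharide, was also in a list of 11 macrophage and leukocyte markers. Summed, that list stood at 47.3 to 52.2 CPM at day 0, 18.2 to 20.7 at day 1 and 30.2 to 32.2 at day 3 in siControl, and without Cd14 at 25.2 to 27.0, 7.87 to 8.96 and 12.3 to 14.3 CPM. Most of the siControl sum came from Cd14, with means of 22.9, 11.0 and 18.1 CPM, and from Cd68, with 17.4, 4.34 and 6.88 CPM. Cd68 lay just outside the threshold of the rule. In siChst7 the whole list stood at 62.2 to 66.5, 23 to 24.4 and 28.6 to 31.1 CPM over the days, and without Cd14 at 28.5 to 30.1, 9.08 to 9.86 and 11.9 to 14.0 CPM. Of its 6 tested genes 3 were called lower at the siChst7 dip and 1 higher, against 26.4% and 27.9% of all genes tested. The defining markers C1qb and C1qc were at 0 in all libraries, and Adgre1 and C1qa were at 0 in siControl and in siChst7 at day 1. In siChst7 C1qa had means of 0.00757 CPM at day 0 and 0.0316 CPM at day 3, and Adgre1 of 0.00982 CPM at day 3. A list of 8 adipocyte markers, of which Cebpa and Lpl are members, summed to 47.1 to 49.5, 18.6 to 22.5 and 40.7 to 44.7 CPM. In siChst7 the sums were 59.9 to 63.5, 21.0 to 21.8 and 40.4 to 46.7 CPM. The 6 that are not members stood in siControl at 17.1 to 19.2 CPM at day 0, 4.81 to 6.6 at day 1 and 3.26 to 3.64 at day 3, with no recovery.

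The sums of 3 further marker lists, none of which holds a member, were also lowest at day 1 with both siRNAs. The 7 mesothelial markers in the table summed to 90.4 to 95, 59.9 to 63.6 and 121.4 to 128.2 CPM in siControl and to 77.8 to 79.1, 39.1 to 46.6 and 120.4 to 134.1 CPM in siChst7. Most of that sum came from Bnc1, with siChst7 means of 59.0, 11.0 and 14.4 CPM, and from Msln, which encodes mesothelin, with 19.4, 30.3 and 108.2 CPM. Bnc1 came back little after its fall and Msln did not fall, while Lrrn4 and Upk1b were at or near 0.

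The 8 neural and Schwann markers summed to 84.8 to 92.2, 56.0 to 59.9 and 107.9 to 119.5 CPM in siControl and to 67.7 to 73.4, 54.3 to 58.3 and 85.4 to 94.1 CPM in siChst7. Nearly all of it was the adhesion molecule Ncam1, with siChst7 means of 66.7, 52.6 and 82.4 CPM and the course of a dip, while Sox10 and Stmn2 were at or near 0. The 11 endothelial markers summed to 20.0 to 22.6, 14.6 to 16.7 and 27.5 to 30.6 CPM in siControl and to 28.1 to 30.1, 20.5 to 21.7 and 26.1 to 30.6 CPM in siChst7. In siChst7 Vwf in that list fell throughout, with means of 17.2, 4.59 and 0.971 CPM, Flt1 rose throughout, with 3.53, 11.9 and 23.1 CPM, and Tie1, Emcn and Cldn5 were at or near 0. At the siChst7 dip 2 of 5 tested mesothelial markers were called lower and 1 higher, 1 of 4 neural and Schwann markers lower, and 1 of 6 endothelial markers lower and 1 higher. The shares over all genes tested were 26.4% lower and 27.9% higher. The sums of cardiomyocyte, skeletal muscle, smooth muscle and pericyte markers instead rose at each step with both siRNAs. The epithelial sum, at most 3.5 CPM, was higher at day 1 than at day 0. In siControl the 10 smooth muscle markers summed to 1531.6 to 1665.3, 2218.1 to 2294.2 and 3448.4 to 3544.9 CPM. The 6 pericyte markers besides the member Pdgfrb summed there to 216.8 to 233.4, 389.3 to 412.8 and 599.7 to 611.9 CPM. The part of other cells in the members' course was not tested.

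Of 9 transcription factors and cofactors 8 fell and all 9 rose in siChst7. Cebpb, a C/EBP factor of inflammation and stress, stood in siControl at 163.1, 162.1 and 156.5 CPM, then 54.6, 51.7 and 53.4, then 96.9, 100.3 and 96.8. In siChst7 it stood at 210.1, 208.1 and 219.2, then 69.4, 54.3 and 62.6, then 117.5, 132.3 and 110.3 CPM (dip -1.28 ± 0.06, edgeR adjusted p = 9.6e-15). Cebpa, the C/EBP factor of adipocytes and hepatocytes, ended above its start in siChst7, with 16.2, 14.8 and 15.3 CPM, then 6.7, 7.41 and 7.75, then 20.7, 25.2 and 19.5. Eya4, a phosphatase that acts as a transcriptional cofactor, went from 18.4, 19.9 and 21.5 through 5.02, 6.0 and 5.41 to 10.2, 13.6 and 11.4 CPM. Bhlhe41, a repressor of the circadian clock, went from 18.7, 21.4 and 20.3 through 7.62, 8.35 and 7.22 to 17.6, 22.3 and 18.0 CPM. Its day 3 values spanned those of day 0. Ahr, the receptor for dioxins and related ligands, went from 13.6, 14.3 and 15.1 through 5.35, 4.44 and 5.16 to 6.36, 6.78 and 6.21 CPM.

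All 4 stress response members fell and rose in siChst7. Ddit3 encodes CHOP, a factor of the unfolded protein response, and Atf5 a related bZIP factor. In siChst7 Ddit3 stood at 79.2, 83.5 and 76.0 CPM, then 44.5, 45.9 and 43.1, then 96.6, 81.8 and 101.7 (dip -0.87 ± 0.06, edgeR adjusted p = 1.22e-10). Atf5 stood at 94.7, 93.1 and 98.9, then 58.6, 57.7 and 59.3, then 88.1, 111.4 and 93.4 CPM (dip -0.64 ± 0.05, edgeR adjusted p = 4.15e-10). For both, the day 1 values lay below all others. Of 39 tested genes of the integrated stress and unfolded protein response, 4 of them members, 21 were called higher at day 1 and 10 lower, with a median of 0.15. The shares over all genes tested were 27.9% higher and 26.4% lower. Psat1, a serine synthesis enzyme on the stress list, was among the higher ones, with mean siChst7 levels of 221.9, 334.4 and 178.4 CPM over the days.

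**Figure D3:**
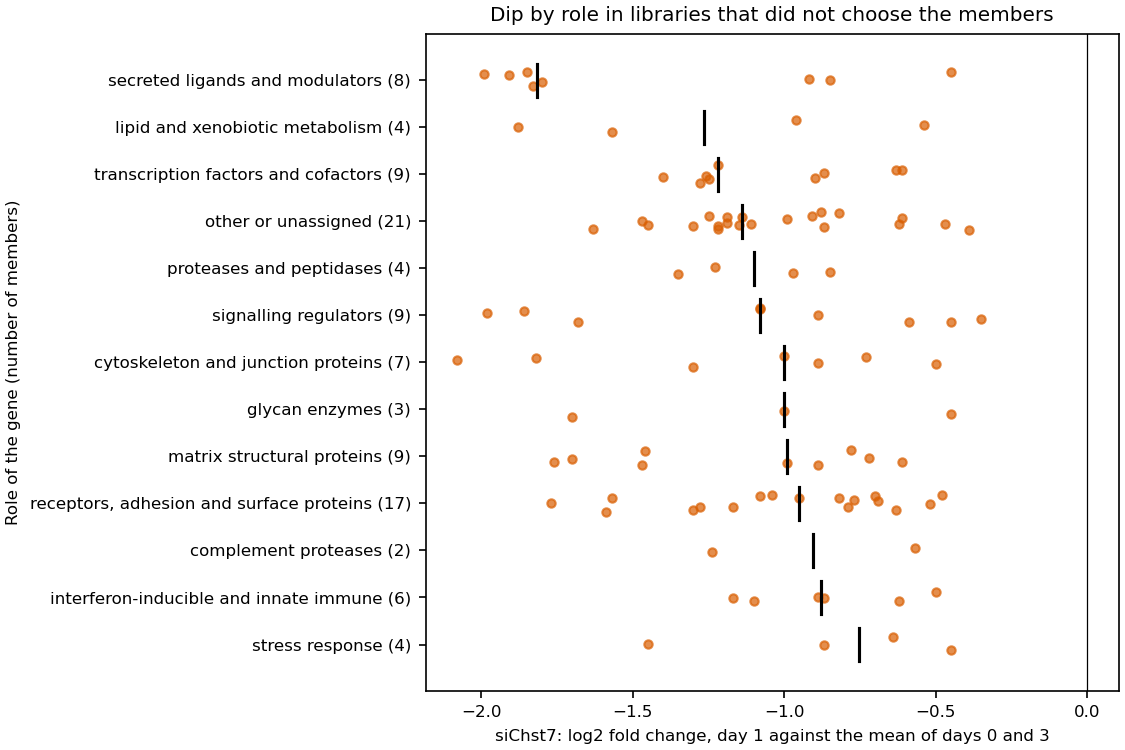
Log2 difference between day 1 and the mean of days 0 and 3 in siChst7 for the 103 members (points) of the 13 roles drawn, grouped by the gene's role, with the median of each role as a black bar. All values drawn lie below 0, and the median of the 8 secreted ligands and modulators lies at -1.82.

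Rhob, a growth factor and stress inducible GTPase, went in siControl from 285.9, 281.0 and 287.3 CPM to 63.7, 68.9 and 66.9 and then to 130.3, 138.6 and 137.9. With siChst7 the course was from 204.2, 207.6 and 211.1 to 60.4, 58.7 and 60.6 and then to 102.7, 124.5 and 105.1 CPM (dip -1.26 ± 0.04, edgeR adjusted p = 1.69e-16). Prex2, an exchange factor for Rac, went from 42.7, 48.1 and 49.0 through 8.43, 9.6 and 10.2 to 26.1, 26.4 and 25.0 CPM (dip -1.80 ± 0.07, edgeR adjusted p = 1.2e-15). Dlc1, a GTPase-activating protein, showed no fall, with 26.8, 25.7 and 29.8 CPM at day 0 and 27.0, 26.2 and 26.5 at day 1, before 43.3, 50.4 and 43.6 at day 3. Of 7 cytoskeletal and junction members all fell and 6 rose. Ank3, which anchors membrane proteins to spectrin, went from 46.8, 46.3 and 52.3 through 9.71, 9.64 and 9.84 to 27.1, 28.6 and 25.8 CPM.

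A few members ended far above their start. Cobl, an actin nucleator, went in siControl from 6.87, 7.9 and 6.88 CPM through 3.13, 3.26 and 3.11 to 36.6, 37.8 and 37.2. In siChst7 it went from 3.94, 3.91 and 3.9 through 1.58, 2.19 and 2.24 to 19.9, 21.1 and 21.0 CPM (dip -2.08 ± 0.1, edgeR adjusted p = 3.32e-14). Pkia, an inhibitor of protein kinase A, went in siChst7 from 5.84, 5.54 and 6.33 through 1.86, 2.63 and 1.89 to 15.5, 12.5 and 12.9 CPM. Pdzd2, a PDZ domain protein, went from 5.64, 5.36 and 6.42 through 4.26, 2.7 and 2.87 to 20.0, 20.5 and 19.0 CPM. In all 3 genes every day 3 value lay above every day 0 value with either siRNA. Cyp1b1, Ltbp2 and Angptl2 were among the members whose siControl day 3 means were far below day 0. Cyp1b1, a cytochrome P450 that is a known target of Ahr, went in siControl from 803.7, 804.9 and 801.5 CPM to 114.9, 116.0 and 120.7 and then to 183.3, 191.0 and 188.3, and its siChst7 dip was -1.57 ± 0.04, edgeR adjusted p = 2.06e-19.

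Among lipid members Ptges, the inducible prostaglandin E synthase, went in siChst7 from 20.1, 19.6 and 21.2 CPM to 2.98, 3.37 and 2.44 and then to 5.89, 6.73 and 7.0 (dip -1.88 ± 0.1, edgeR adjusted p = 1.6e-13). Lpl, lipoprotein lipase, and Plin2, a coat protein of lipid droplets, had smaller dips of -0.96 ± 0.08 and -0.54 ± 0.04. Of 22 tested lipid and retinoid handling genes, 3 of them members, 10 were called lower at the dip and 3 higher. Gxylt2, a xylosyltransferase that extends O-glucose on Notch repeats, stood in siControl at 30.9, 34.4 and 34.2 CPM, then 7.72, 8.48 and 8.52, then 39.3, 37.3 and 38.1. In siChst7 it stood at 46.2, 47.6 and 49.0, then 11.7, 11.2 and 11.2, then 30.7, 37.4 and 28.3 CPM (dip -1.70 ± 0.07, edgeR adjusted p = 2.12e-15). Of 25 tested matricellular and elastic fibre genes, 3 of them members, 15 were called lower at the dip and 7 higher. Of 52 guidance genes, 3 of them members, 26 were lower and 9 higher. Of 48 interferon response genes, 1 of them a member, 27 were lower and 4 higher. Over all genes tested, 26.4% were called lower at the dip and 27.9% higher. A gene that fell and did not come back also counts as lower at the dip. From day 1 to day 3 in siChst7, 11 of the 22 lipid genes were called higher and 3 lower. For the matricellular genes it was 8 and 11, for the guidance genes 22 and 12, and for the interferon response genes 19 and 18. Among genes that met the siControl minimum, 29.6% rose at that step and 43.8% fell.

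Members differed between the siRNAs in both directions. These comparisons set siChst7 libraries against the siControl libraries that chose the members, whose day 1 values had to be low and whose day 0 and day 3 values had to be high, so that they are not independent of the choice. The counts below are of genes past the edgeR threshold and are a description. Beside each stand the share over all genes tested and then that over genes that met the siControl minimum. At day 0, before doxycycline, 37 members (33.0%) were higher with siChst7, against 13.9% and 15.7%, and 18 (16.1%) lower, against 13.5% and 17.7%. At day 1, 37 (33.0%) were higher, against 8.86% and 10.1%, and 11 (9.82%) lower, against 8.72% and 10.8%. At day 3, 23 (20.5%) were higher, against 23.1% and 26.3%, and 32 (28.6%) lower, against 21.6% and 28.7%. The split at day 3 was 18 to 40 with the DESeq2 test.

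At day 0 the largest increases were in Adamts7, a metalloproteinase of the matrix, and Mylip, an E3 ligase for the LDL receptor. Adamts7 stood at 177.1, 169.7 and 187.4 CPM with siChst7 and 86.6, 80.0 and 81.7 with siControl (log2 fold change 1.05 ± 0.06). Mylip stood at 12.0, 11.9 and 12.8 against 5.97, 5.35 and 5.98 CPM (1.02 ± 0.1). Pdgfrb, the PDGF receptor of mesenchymal cells, stood at 195.6, 192.9 and 211.3 against 109.7, 111.9 and 107.8 CPM (0.81 ± 0.04). None of these 3 genes overlapped between the siRNAs at day 0. Gas1, a co-receptor of hedgehog proteins, Trib2 and Lhfpl2 were higher by 0.90, 0.84 and 0.77 on the log2 scale. The largest decreases were in Cobl (-0.94 ± 0.09), Trib3 (-0.74 ± 0.08), Spry1, a feedback inhibitor of growth factor signalling (-0.74 ± 0.11), Inhbb (-0.58 ± 0.06), Dlc1 (-0.57 ± 0.06) and Bmp6 (-0.55 ± 0.11).

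At day 1 the members furthest above siControl were Postn (1.01 ± 0.18), Tlr2 (0.95 ± 0.1) and Adcyap1r1, the receptor of the peptide PACAP (0.94 ± 0.13). Furthest below were Cobl (-0.65 ± 0.12), Arrdc3, an arrestin-like adaptor (-0.49 ± 0.09), Bhlhe41 (-0.44 ± 0.09) and Prex2 (-0.44 ± 0.08). The count of 11 lower members at day 1 was 5 without siChst7 day 1 replicate 3 and 6 without siControl day 1 replicate 3. At day 3 the largest increase was in Lockd, a non-coding RNA, which stood at 26.4, 19.4 and 27.7 against 10.6, 11.4 and 10.8 CPM (1.21 ± 0.13). Ly6a, the surface antigen Sca-1, stood at 17.7, 11.5 and 16.9 against 8.27, 7.11 and 8.64 CPM (0.99 ± 0.14), and its reads may be shared with other Ly6 genes. The largest decreases were in Cnih2 (-0.86 ± 0.14), Cobl (-0.80 ± 0.08) and Podn (-0.76 ± 0.16). The count of 23 higher members at day 3 was 14 without siChst7 day 3 replicate 3.

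Of the 6 interferon-inducible and innate immune members, a class assigned by hand, 5 were called higher with siChst7 at day 3 (Gbp9, Irgm1, Nlrc5, Parp10 and Tnfaip8), against 23.1% of all genes tested. Interferon response genes outside the members were higher too. Of the 48 tested, 1 of them a member, 36 were called higher at day 1 and 41 at day 3, with none lower. The shares called higher over all genes tested were 8.86% at day 1 and 23.1% at day 3. Irgm1, an immunity-related GTPase, stood at 94.8, 86.1 and 100.7 against 69.8, 66.3 and 66.7 CPM (0.52 ± 0.06). Gbp9, a guanylate-binding protein with close copies that could share its reads, stood at 19.5, 19.6 and 18.1 against 13.4, 12.6 and 13.7 CPM (0.58 ± 0.12). In both, the siRNAs did not overlap at day 3. The other one, Optn, an autophagy receptor, was not called and stood at 12.8, 14.7 and 10.9 against 13.3, 11.8 and 14.8 CPM (0.00 ± 0.11). Lgals9, a galectin whose promoter also holds the interferon letters, stood at 78.4, 78.1 and 88.8 against 72.1, 72.2 and 75.5 CPM (0.21 ± 0.07).

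**Figure D4:**
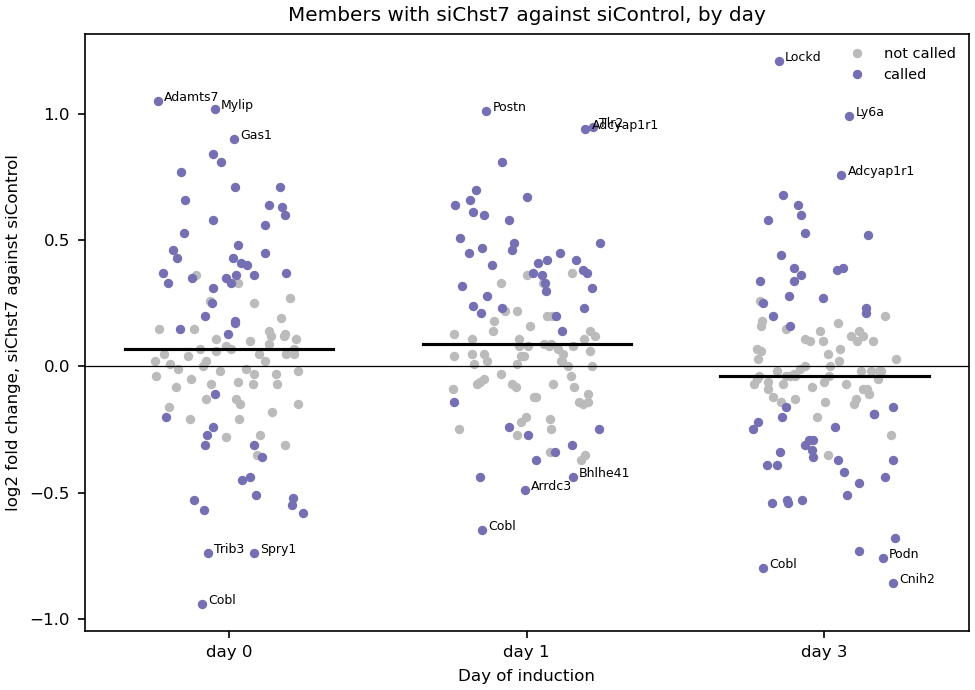
Log2 fold change of siChst7 against siControl for 111 of the 112 members at days 0, 1 and 3, in purple where the edgeR adjusted p was below 0.05 and grey otherwise, with the median as a black bar and the most extreme called genes named. Called genes lie on both sides of 0 on every day, with 37 above and 18 below at day 0.

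The depth of the dip was compared between the siRNAs by the interaction of day and siRNA. It was shallower with siChst7 for 20 members (17.9%), against 5.44% of all genes tested, and deeper for 5 (4.46%), against 4.13%, while 87 members were not called. Over genes that met the siControl minimum the shares were 7.33% and 4.95%. The siControl dip was selected to be deep, so that the number of shallower dips is tied to the choice and the values are a description. The 20 became 13 without siControl day 1 replicate 1 and 32 without siChst7 day 3 replicate 2. Dlc1 stood in siControl at 38.7, 38.3 and 40.1 CPM, then 24.0, 22.5 and 21.7, then 46.8, 48.8 and 50.5, against the level start in siChst7 given above (difference 0.54 ± 0.08). Nedd9, a scaffold of focal adhesions, went in siControl from 27.0, 28.9 and 28.4 CPM through 17.1, 16.9 and 18.3 to 44.7, 43.1 and 45.0. In siChst7 it went from 19.8, 19.5 and 21.6 through 21.6, 20.2 and 19.8 to 43.5, 44.2 and 42.0 CPM (difference 0.50 ± 0.07). In both genes siChst7 lay below siControl at day 0 without overlap.

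Dpysl3, a collapsin response mediator that binds the cytoskeleton, was shallower by 0.49 ± 0.05, with siControl values of 496.7, 495.5 and 515.7 CPM, then 167.3, 167.2 and 167.9, then 330.4, 339.1 and 335.6. Its siChst7 values were 358.8, 357.5 and 380.1, then 174.5, 172.4 and 174.3, then 250.9, 279.9 and 239.0 CPM, close to siControl at day 1 and lower at both other days. Thbs2, Tlr2 and Trib3 were shallower by 0.50, 0.52 and 0.46 on the log2 scale, and Plpp3, Col6a2 and Pdgfrb by 0.31, 0.30 and 0.29. Deeper dips with siChst7 were called for Casp12, Arrdc3, Prex2, Gas1 and Sema3c. The 5 became 3 without siChst7 day 1 replicate 1 and 3 without siControl day 1 replicate 2.

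Casp12, a caspase of the endoplasmic reticulum, stood in siControl at 28.7, 32.7 and 33.0 CPM, then 18.7, 19.1 and 18.3, then 33.7, 31.8 and 35.3. In siChst7 it stood at 56.9, 55.5 and 48.8, then 17.3, 18.3 and 18.3, then 56.2, 38.9 and 56.3 CPM (difference -0.72 ± 0.14). The siRNAs were close at day 1, and siChst7 was higher at days 0 and 3. Gas1 went in siControl from 25.2, 28.4 and 27.2 CPM through 15.5, 18.3 and 16.4 to 55.3, 51.2 and 63.7. With siChst7 it went from 54.2, 49.7 and 53.4 through 16.6, 16.6 and 17.5 to 56.6, 58.4 and 46.8 CPM (difference -0.42 ± 0.11), with the siRNAs apart at day 0. That call was lost in 3 of the fits that left out 1 library, among them the one without siControl day 1 replicate 2. Arrdc3 stood at 6.4, 5.4 and 6.19 CPM at day 1 with siChst7 against 8.76, 8.4 and 8.24 with siControl (difference of dips -0.53 ± 0.1). The calls for Casp12, Arrdc3 and Prex2 (-0.50 ± 0.09) held in all 25 alternatives, and that for Sema3c (-0.26 ± 0.08) was lost in 16 of them.

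**Figure D5:**
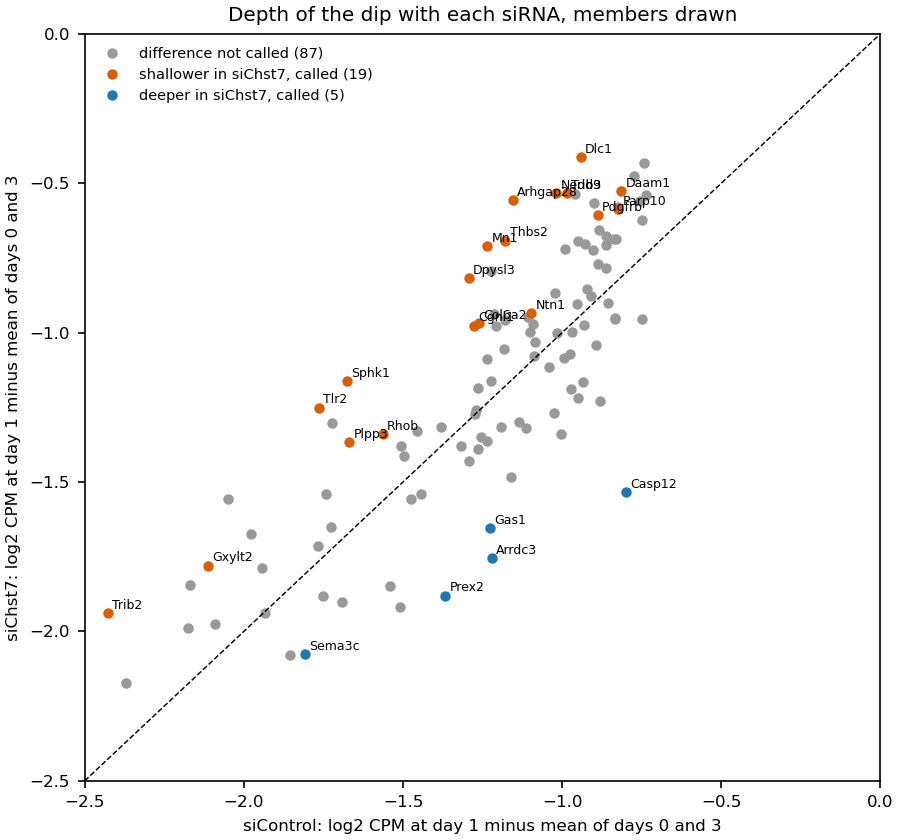
Depth of the dip in siChst7 (vertical) against siControl (horizontal) for 111 of the 112 members, as log2 CPM at day 1 minus the mean of days 0 and 3, with the line of equal depth dashed. The 19 members drawn that were called shallower in siChst7 lie above the line and the 5 called deeper, Casp12, Gas1, Arrdc3, Prex2 and Sema3c, below it.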

How the data were processed

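RNA of 18 libraries (6 groups of 3) was sequenced from poly-A mRNA libraries. The authors deposited raw read counts per gene and a gene length in bases. HISAT2, Subread, featureCounts, DESeq2 and the build mm10 are named per the submitters' processing notes, and versions, annotation, strand and multi-mapping settings were not given in the sources read. The table holds 24514 genes, of which 25 symbols read as dates and were left as they stand, and no column of another sample.

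CPM in the text uses library totals. Tests used edgeR 4.0.16 in R 4.3.3 (TMM scaling, filterByExpr, quasi-likelihood fit over all 6 groups, 13802 genes, 12 residual degrees of freedom, common dispersion 0.00331), with Benjamini-Hochberg adjustment over all genes and a threshold of 0.05, and were tested on simulated data. The standard error is the log2 fold change over the root of F. DESeq2 1.42.0 was an alternative. The members and lists were chosen with earlier results of these data known.

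Genes were named by a rule: the 12 deepest members, the 10 most abundant, up to 6 in each list with 3 or more members, the 6 largest differences each way in each siRNA comparison, the 6 that failed the rule in siChst7 by most, and the 4 nearest the threshold on each side. Ahr, Cd14, Cdh11, Cebpa, Cotl1, Creb5, Dnm3os, Eya4, Gbp9, Hmga2-ps1, Irgm1, Kifc3, Lgals9, Nlrc5, Optn, Parp10, Pdzd2, Pkia and Tnfaip8 fall outside it and were chosen after their values were seen, as were the 5 promoters. Replicate numbers did not pair the samples: over 45 same-numbered pairs the correlation of deviations ran from -0.066 to 0.068. 1 member, left out of the figures, and the summary of 1 role class, left out of the plot by role, are not reported here.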

Additional observations from a re-analysis of the deposited data

Results flagged for a closer look

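The depth of the dip differed between the siRNAs by a test of the interaction of day and siRNA (edgeR, adjusted p below 0.05) for these members among the largest differences each way. Values are log2, siChst7 minus siControl, and a negative value is a deeper dip with siChst7. Casp12 differed by -0.72, Arrdc3 by -0.53, Prex2 by -0.50, Gas1 by -0.42 and Sema3c by -0.26. Arhgap28 differed by 0.60, Dlc1 by 0.54, Mn1 by 0.53, Tlr2 by 0.52, Sphk1 by 0.52 and Nedd9 by 0.50. The siControl libraries in these differences are those that chose the members, and their dip had to be deep. The test is therefore not independent of the choice, and the differences are a description. When other settings were used or 1 library was left out, Arhgap28, Mn1 and Sphk1 lost the call in 4, 3 and 4 of 25 alternatives. As given above, Gas1 lost it in some of them too, and Sema3c in most.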

How the results depend on the processing

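The dip in siChst7 was called for 112 members under every alternative run, the fall to day 1 for 107 to 109, the rise to day 3 for 99 to 107 and both steps for 95 to 103. The rule itself moved the number of members: 224 at a ratio of 1.4, 35 at a ratio of 2, 198 at a minimum of 1 CPM and 52 at 20 CPM, with 106 to 119 when 1 siControl library was left out and 82 on TMM-scaled totals, 81 of them members. In siChst7, 29 members passed at a ratio of 2 and 29 at 20 CPM, against 67. Leaving out 1 library gave 5 to 10 members lower with siChst7 at day 1, 14 to 24 higher at day 3, 13 to 32 with a shallower dip and 3 to 7 with a deeper dip; the cause was not tested. With a replicate block, 108 members fell, 101 rose, 112 dipped and 97 had both calls, and dips were shallower for 19 and deeper for 4, so that no count moved by over 1.5 times. For single genes, 7113 of 7378 alternative values kept their side of the threshold, 177 lost the call and 88 gained one. None changed direction where either fit had a call. Some values near 0 that were called in neither fit did change direction. Day 1 means under 10 CPM, the case for most members, limit how well small differences between the siRNAs can be seen there.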
